A study of Mus musculus with 11 samples.

Results

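Translation initiation factors are the proteins that bring the small ribosomal subunit, the initiator tRNA and the mRNA together. Here they were defined as the genes of the array with a single platform symbol beginning with Eif1 to Eif6. The 4 Eif2ak genes, which encode kinases of eIF2, were left out. This gave 45 genes on 54 probe sets, out of 19938 genes with a single symbol. Each gene was read from 1 probe set, the one with the highest mean over the 11 arrays. The 45 genes comprised 6 factors of scanning and start-codon recognition, 5 eIF2 subunits and eIF2-independent tRNA carriers, 5 eIF2B subunits, 11 eIF3 subunits, 12 genes of the cap-binding eIF4F complex and its helicase cofactors, 3 genes of eIF4E-binding inhibitors and a transporter, 2 eIF5A genes and Eif6. Eif1, Eif2s1, Eif3g, Eif3j, Eif4g1 and Eif4ebp3 have no single-symbol probe set in the annotation used and were not analysed here.

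Initiation begins when eIF2, bound to GTP, carries the initiator tRNA to the small subunit, where eIF1, eIF1A, eIF3 and eIF5 gather. The eIF4F complex, made of the cap-binding protein eIF4E, a scaffold and the helicase eIF4A, loads this assembly at the mRNA cap. The assembly then scans to a start codon, where eIF2 releases its tRNA, eIF5B joins the large subunit and eIF2B recharges eIF2 with GTP. MYC is a transcription factor known for driving genes of ribosome production and translation. It binds the DNA motif CACGTG, called an E-box.

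Thymus RNA of FVB mice was hybridised to Affymetrix arrays, from 300 ng of total RNA per sample. All groups carried the EμSR-tTA activator, which drives tetracycline-controlled transgenes in blood cells, and the Rosa26LOXPEGFP reporter, which Cre recombinase turns on. Normal thymocytes (n = 3, 24 days of age) also carried Teto-Cre and were Dnmt3b+/+, without a MYC transgene. Wild-type lymphomas (n = 3) carried Teto-MYC and Dnmt3bF/F, a floxed allele, and no Cre. Dnmt3b-deficient lymphomas (n = 3) and pre-tumor thymocytes (n = 2, 24 days of age) carried Teto-MYC and Teto-Cre and are labelled Dnmt3b-/-. Tumors were taken when tumor burden was apparent and went unsorted into TRIzol, whereas pre-tumor thymi were sorted for EGFP+ cells. The labels leave unclear if normal thymocytes had been sorted. Compared with normal thymocytes, each other group differs in the MYC transgene together with Dnmt3b allele, Cre, stage or sorting, and these cannot be told apart. The labels call the samples of each group biological replicates.

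All values are log2 signals with a floor at 3.32, and 0 of the 45 genes had any array at the floor. The probe set of Dnmt3b, the DNA methyltransferase targeted in the study, ranged from 5.22 to 5.31 in normal samples, 5.36 to 5.70 in wild-type tumors, 5.26 to 5.49 in Dnmt3b-deficient tumors and 5.07 to 5.24 in pre-tumor samples. The tumor genotypes thus overlapped on it. Whether it lies in the deleted part was not analysed here, so it does not check the labels. The probe set of the mouse Myc gene was lower in all 8 MYC-transgenic samples (4.29 to 5.87) than in normal thymocytes (7.77 to 8.13), and whether it reads the transgene was not analysed here. Thymocyte markers fell: 8 of 9 measured in wild-type tumors, 7 in Dnmt3b-deficient tumors and 5 in pre-tumor samples. Their summed log2 level was 93.6 to 94.7 in normal samples, 64.5 to 71.1 in wild-type tumors, 71.0 to 72.4 in Dnmt3b-deficient tumors and 78.6 to 84.9 in pre-tumor samples, against 29.9 if all were at the floor. The summed level of 6 dendritic cell markers was 37.6 to 39.8, 34.9 to 37.8, 32.0 to 33.4 and 33.5 to 34.4 in the same order, and 0, 3 and 4 of them fell in the respective comparisons. The summed level of 8 neutrophil markers was 41.4 to 45.5, 33.8 to 55.7, 32.9 to 50.8 and 32.6 in the same order. That of 8 macrophage markers was 37.8 to 39.2, 36.2 to 47.0, 33.4 to 39.0 and 33.2 to 33.8. Of the macrophage markers 1 rose in wild-type lymphomas. Among 5 B cell markers 1 rose in pre-tumor thymocytes, among 2 erythroid markers 1 fell in Dnmt3b-deficient lymphomas, and among 8 markers of stroma and endothelium 3, 1 and 1 fell. No marker sat at the floor on all arrays. Their part in the results below was not tested, and in bulk RNA fewer cells of a type and less RNA per cell cannot be told apart.

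More initiation factor genes rose than fell in each MYC-transgenic group against normal thymocytes. Genes of eIF3, eIF2, eIF1A and eIF5B were among those that rose, and the cap-binding gene Eif4e3 fell. A gene counted as risen or fallen at a Benjamini-Hochberg adjusted p under 0.05 in limma, over the 28939 probe sets tested. In wild-type lymphomas 21 genes rose and 4 fell, together 55.6% of the 45, whereas 19.9% of all probe sets passed. In Dnmt3b-deficient lymphomas 21 rose and 3 fell, 53.3%, where 20.2% of all probe sets passed. In pre-tumor thymocytes 16 rose and 4 fell, 44.4%, where 19.6% of all probe sets passed. The background for rises alone was 9.58%, 9.70% and 9.69%, and for falls alone 10.3%, 10.5% and 9.88%. The median difference over the 45 genes was 0.48, 0.60 and 0.38, beside 0.00, 0.00 and -0.02 over all probe sets.

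Many probe sets of the whole array are dim, and 44 of the 45 genes lie above the median probe set in mean level. When the probe sets at or above the median level were refitted by themselves, 27 of those 44 genes passed in wild-type tumors, 27 in Dnmt3b-deficient tumors and 24 in pre-tumor samples. The background then went to 45.4%, 44.9% and 43.0%. The rises among them numbered 23, 24 and 20, where 23.4%, 22.9% and 22.3% of these probe sets rose. The samples of the groups did not overlap for 33 of the 45 genes in each of the 3 comparisons with normal thymocytes, beside 34.9%, 32.4% and 44.7% of all probe sets. The 3 comparisons share the same normal samples. The count in pre-tumor thymocytes dropped from 20 to 13 without pre-tumor replicate 2, and to 8 when only the pre-tumor and normal samples were fitted. The fit of pre-tumor and normal samples alone lost, among others, the pre-tumor calls of Eif2b3, Eif2b4, Eif3a, Eif3e, Eif4h, Eif5a and Eif5b. In that limma fit their adjusted p was between 0.0521 and 0.0937. Fitting Dnmt3b-deficient lymphomas and normal samples alone took the count from 24 to 19. It lost Eif2b2, Eif3i, Eif3m, Eif4a2 and Eif4b (adjusted p between 0.0542 and 0.0698). The same kind of fit for wild-type lymphomas took 25 to 23. It lost Eif2s3y, Eif3i and Eif4g3 (adjusted p between 0.0501 and 0.0758), and Eif2b1 passed (adjusted p 0.0186). Pre-tumor replicate 1 was the lower of the pair for 34 of the 45 genes.

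**Figure D1:**
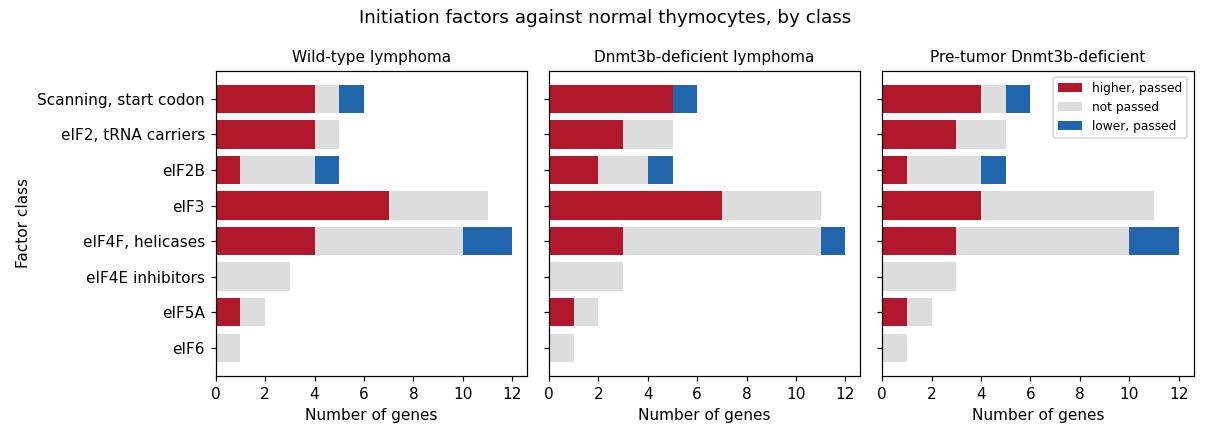
Number of genes per factor class (horizontal axis) that rose, fell or did not pass at an adjusted p under 0.05 against normal thymocytes, for each of the 3 MYC-transgenic groups. Rises were seen in most classes, and in wild-type lymphomas 7 of 11 eIF3 genes rose and 0 fell.

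The promoter windows of the genes were searched for CACGTG, the only motif searched, which reads the same on both strands. Of the 45 genes, 35 have a window in RefSeq (GRCm38.p6), spanning 250 bases before to 50 after the transcription start. The motif was present for 9 of the 35 genes (25.7%), and for 2187 of 27025 genes with a window (8.09%). Counted by window it was in 11 of 47 (23.4%), and in 2349 of 32851 windows of all genes (7.15%). This background was not matched for expression level, so the excess cannot be called particular to initiation factors. The 9 genes are Eif1b, Eif3a, Eif3f, Eif3k, Eif4a1, Eif4e, Eif4h, Eif5a and Eif5a2. As described below, they include risers, fallers and genes that did not pass. A match is a description of these letters and not evidence of binding. The windows of Eif3a and Eif4e, which rose in all 3 comparisons, of Eif1b, which fell in all 3, and of Eif4h, which fell in wild-type lymphomas and pre-tumor thymocytes and did not pass in Dnmt3b-deficient lymphomas, are shown because they hold the same motif with opposite differences. Each is printed 5′ to 3′ on the gene's strand, from 250 bases before to 30 after the start, with CACGTG in capitals. Eif3a lies at chr19:60790664-60790943 on the minus strand, Eif4e at chr3:138527018-138527297 on the plus strand, Eif1b at chr9:120492356-120492635 on the plus strand and Eif4h at chr5:134639380-134639659 on the minus strand.
Eif3a: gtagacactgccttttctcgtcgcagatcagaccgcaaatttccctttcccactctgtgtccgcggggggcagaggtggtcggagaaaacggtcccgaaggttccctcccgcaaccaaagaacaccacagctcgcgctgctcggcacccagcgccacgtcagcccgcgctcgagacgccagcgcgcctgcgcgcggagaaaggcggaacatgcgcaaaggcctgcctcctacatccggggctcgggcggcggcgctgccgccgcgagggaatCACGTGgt
Eif4e: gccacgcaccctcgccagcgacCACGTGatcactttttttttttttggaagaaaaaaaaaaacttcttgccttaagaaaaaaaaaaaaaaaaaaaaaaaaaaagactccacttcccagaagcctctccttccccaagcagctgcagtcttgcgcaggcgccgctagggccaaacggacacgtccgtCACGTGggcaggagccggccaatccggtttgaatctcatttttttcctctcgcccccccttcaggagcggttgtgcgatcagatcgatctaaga
Eif1b: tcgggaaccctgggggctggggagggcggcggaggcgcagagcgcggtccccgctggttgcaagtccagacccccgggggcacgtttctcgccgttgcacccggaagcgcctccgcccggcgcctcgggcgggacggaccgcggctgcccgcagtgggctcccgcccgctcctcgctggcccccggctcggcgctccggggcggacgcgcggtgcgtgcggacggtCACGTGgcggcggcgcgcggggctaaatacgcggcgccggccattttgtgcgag
Eif4h: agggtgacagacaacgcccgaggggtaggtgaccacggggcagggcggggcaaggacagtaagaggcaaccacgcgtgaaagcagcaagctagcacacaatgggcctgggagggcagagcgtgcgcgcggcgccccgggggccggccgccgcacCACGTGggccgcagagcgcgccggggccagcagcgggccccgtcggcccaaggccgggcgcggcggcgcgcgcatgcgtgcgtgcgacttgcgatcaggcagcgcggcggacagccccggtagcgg

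Most genes of the scanning and start-codon class passed in each comparison with normal thymocytes. Eif1ad, known from small-subunit maturation, was counted in this class and passed in Dnmt3b-deficient lymphomas only. In wild-type lymphomas 4 of 6 rose and 1 fell, in Dnmt3b-deficient lymphomas 5 rose and 1 fell, and in pre-tumor thymocytes 4 rose and 1 fell. Eif1a and Eif1ax encode forms of eIF1A, which keeps the small subunit open for scanning. Eif1a had log2 levels of 5.04, 5.08 and 5.04 in normal samples, 7.76, 7.62 and 7.32 in wild-type tumors, 7.86, 7.88 and 7.09 in Dnmt3b-deficient tumors, and 7.20 and 7.54 in pre-tumor samples. The normal samples lay close together and every other array was above all of them. The difference was 2.52 (SE 0.22, adjusted p 0.000775) in wild-type tumors, 2.56 (SE 0.22, adjusted p 0.000537) in Dnmt3b-deficient tumors and 2.32 (SE 0.25, adjusted p 0.00202) in pre-tumor samples, which is 5.72-fold, 5.89-fold and 4.99-fold higher. Eif1a has near-identical copies under Gm symbols, so how much of its signal comes from each is uncertain. Eif1ax had log2 levels of 7.73, 7.50 and 7.83 in normal samples, 9.08, 8.72 and 8.70 in wild-type tumors, 8.70, 9.10 and 8.58 in Dnmt3b-deficient tumors, and 8.66 and 9.03 in pre-tumor samples. All 8 MYC-transgenic arrays were again above the normal samples. The difference was 1.15 (SE 0.18, adjusted p 0.00462) in wild-type tumors, 1.10 (SE 0.18, adjusted p 0.00484) in Dnmt3b-deficient tumors and 1.16 (SE 0.20, adjusted p 0.00829) in pre-tumor samples. The pre-tumor call was lost without pre-tumor replicate 2 (adjusted p 0.0757).

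Eif5 activates GTP hydrolysis by eIF2 at the start codon, and Eif5b is the GTPase that joins the large subunit. Eif5 had log2 levels of 7.12, 7.17 and 7.47 in normal samples, 8.83, 8.80 and 8.64 in wild-type tumors, 9.07, 9.09 and 8.57 in Dnmt3b-deficient tumors, and 8.86 and 8.91 in pre-tumor samples. No array of another group reached down to the highest normal sample. Its difference was 1.50 (SE 0.15, adjusted p 0.00104) in wild-type tumors, 1.66 (SE 0.15, adjusted p 0.000629) in Dnmt3b-deficient tumors and 1.63 (SE 0.17, adjusted p 0.0019) in pre-tumor samples. Eif5b had log2 levels of 5.65, 5.28 and 5.83 in normal samples, 7.86, 7.31 and 7.29 in wild-type tumors, 7.87, 7.94 and 7.39 in Dnmt3b-deficient tumors, and 7.40 and 8.16 in pre-tumor samples. Here too all 8 MYC-transgenic arrays exceeded the 3 normal ones. Its difference was 1.90 (SE 0.27, adjusted p 0.00336) in wild-type tumors, 2.15 (SE 0.27, adjusted p 0.00183) in Dnmt3b-deficient tumors and 2.19 (SE 0.31, adjusted p 0.00418) in pre-tumor samples. Eif1b, a paralogue of Eif1, which monitors start-codon choice, ran the other way. Eif1b had log2 levels of 8.86, 8.90 and 8.80 in normal samples, 7.93, 7.77 and 7.90 in wild-type tumors, 7.60, 7.96 and 8.05 in Dnmt3b-deficient tumors, and 7.78 and 8.42 in pre-tumor samples. Every MYC-transgenic array was below the normal samples, with pre-tumor replicate 2 the nearest to them. The difference of Eif1b was -0.99 (SE 0.17, adjusted p 0.00737) in wild-type tumors, -0.98 (SE 0.17, adjusted p 0.00673) in Dnmt3b-deficient tumors and -0.75 (SE 0.19, adjusted p 0.0332) in pre-tumor samples. The pre-tumor value was lost on leaving out any normal sample, any wild-type lymphoma or pre-tumor replicate 1 (adjusted p between 0.0521 and 0.135). Without pre-tumor replicate 1 the difference was -0.43. Eif1ad, an eIF1A-domain protein known from small-subunit maturation, rose in Dnmt3b-deficient lymphomas by 0.90 (SE 0.15, adjusted p 0.00474). The other differences did not pass, at 0.37 in wild-type lymphomas (adjusted p 0.128) and 0.46 in pre-tumor thymocytes (adjusted p 0.0969).

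Of the 5 genes of eIF2 subunits and tRNA carriers, 4 rose in wild-type lymphomas and 3 in each of the other groups, and 0 fell. The shares that passed were 80.0%, 60.0% and 60.0%, beside 19.9%, 20.2% and 19.6% of all probe sets. Eif2s2 encodes the beta subunit of eIF2. Eif2s2 had log2 levels of 5.42, 5.10 and 5.90 in normal samples, 7.88, 7.61 and 7.50 in wild-type tumors, 8.55, 8.35 and 7.18 in Dnmt3b-deficient tumors, and 7.69 and 8.15 in pre-tumor samples. The normal samples were lowest, and the third Dnmt3b-deficient lymphoma lay more than 1 log2 unit below the other two. The difference was 2.19 (SE 0.38, adjusted p 0.00676) in wild-type tumors, 2.56 (SE 0.38, adjusted p 0.00329) in Dnmt3b-deficient tumors and 2.45 (SE 0.42, adjusted p 0.00823) in pre-tumor samples. Without pre-tumor replicate 2 the pre-tumor adjusted p was 0.0743. Eif2a is a separate protein from the eIF2 complex, known for initiation at other codons than AUG. Eif2a had log2 levels of 6.47, 5.65 and 6.47 in normal samples, 8.71, 8.16 and 8.33 in wild-type tumors, 8.31, 8.52 and 8.04 in Dnmt3b-deficient tumors, and 7.91 and 8.85 in pre-tumor samples. Normal replicate 2 was the lowest array, and the normal samples stayed apart from all others. The difference was 2.20 (SE 0.32, adjusted p 0.00357) in wild-type tumors, 2.09 (SE 0.32, adjusted p 0.00387) in Dnmt3b-deficient tumors and 2.18 (SE 0.36, adjusted p 0.00713) in pre-tumor samples, with an adjusted p of 0.0565 for pre-tumor thymocytes without pre-tumor replicate 2.

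Eif2s3x and Eif2s3y encode near-identical gamma subunits of eIF2 on the X and Y chromosomes, so probes may read both. Eif2s3x had log2 levels of 8.22, 7.77 and 7.99 in normal samples, 9.73, 9.53 and 9.55 in wild-type tumors, 9.95, 9.89 and 9.45 in Dnmt3b-deficient tumors, and 9.40 and 9.86 in pre-tumor samples. The 8 MYC-transgenic arrays stood together above the normal ones. The difference was 1.61 (SE 0.18, adjusted p 0.00147) in wild-type tumors, 1.77 (SE 0.18, adjusted p 0.00092) in Dnmt3b-deficient tumors and 1.64 (SE 0.21, adjusted p 0.00303) in pre-tumor samples. Eif2s3y had log2 levels of 6.62, 5.49 and 6.49 in normal samples, 8.004, 7.63 and 7.34 in wild-type tumors, 7.02, 7.99 and 7.34 in Dnmt3b-deficient tumors, and 7.27 and 8.04 in pre-tumor samples. All 8 MYC-transgenic arrays were above the normal ones for it too, and the normal samples spread more widely. Its difference was 1.45 (SE 0.40, adjusted p 0.0401) in wild-type tumors, 1.25 (SE 0.40, adjusted p 0.0686) in Dnmt3b-deficient tumors and 1.45 (SE 0.45, adjusted p 0.0601) in pre-tumor samples. The call in wild-type lymphomas was lost on leaving out any normal sample, any wild-type lymphoma or Dnmt3b-deficient lymphoma replicate 3 (adjusted p between 0.0511 and 0.131), and without variance moderation (adjusted p 0.0522). Without the dimmer probe sets the differences in Dnmt3b-deficient lymphomas and pre-tumor thymocytes passed (adjusted p 0.0138 and 0.0124). Eif2d, which can deliver tRNA without GTP, differed by -0.03, -0.02 and -0.20, and did not pass in any of the 3 comparisons (lowest adjusted p 0.356).

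eIF2B is the exchange factor that returns eIF2 to its GTP-bound form, and its 5 subunit genes did not move together. In wild-type lymphomas 1 rose and 1 fell, in Dnmt3b-deficient lymphomas 2 rose and 1 fell, and in pre-tumor thymocytes 1 rose and 1 fell. The shares that passed were 40.0%, 60.0% and 40.0%, beside 19.9%, 20.2% and 19.6% of all probe sets. Among the brighter probe sets refitted above they were 45.4%, 44.9% and 43.0%. Eif2b3 encodes gamma, a subunit of the catalytic part. Eif2b3 had log2 levels of 5.89, 6.09 and 5.86 in normal samples, 8.31, 8.10 and 7.98 in wild-type tumors, 8.47, 8.28 and 7.94 in Dnmt3b-deficient tumors, and 7.26 and 8.05 in pre-tumor samples. All MYC-transgenic arrays were above normal, pre-tumor replicate 1 least so. The difference was 2.18 (SE 0.22, adjusted p 0.00101) in wild-type tumors, 2.29 (SE 0.22, adjusted p 0.000715) in Dnmt3b-deficient tumors and 1.71 (SE 0.25, adjusted p 0.00462) in pre-tumor samples, or 4.53-fold, 4.88-fold and 3.27-fold. Eif2b1 encodes the alpha subunit of the regulatory part, through which phosphorylated eIF2 inhibits the exchange. Eif2b1 had log2 levels of 7.28, 7.39 and 7.34 in normal samples, 8.24, 7.95 and 7.90 in wild-type tumors, 8.48, 8.36 and 7.99 in Dnmt3b-deficient tumors, and 7.59 and 8.32 in pre-tumor samples. The groups did not overlap with normal thymocytes here either. Its difference was 0.69 (SE 0.21, adjusted p 0.054) in wild-type tumors, 0.94 (SE 0.21, adjusted p 0.0163) in Dnmt3b-deficient tumors and 0.62 (SE 0.23, adjusted p 0.11) in pre-tumor samples. The call in Dnmt3b-deficient lymphomas was lost without normal replicate 1, Dnmt3b-deficient lymphoma replicate 1 or Dnmt3b-deficient lymphoma replicate 2 (adjusted p between 0.0529 and 0.058). The wild-type value passed at 0.0199 without either pre-tumor sample and under 6 other alternatives (adjusted p between 0.0155 and 0.048), and the pre-tumor value at 0.022 without pre-tumor replicate 1 and at 0.0429 without the dimmer probe sets.

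The beta and delta subunits, also of the regulatory part, were lower. Eif2b2, encoding beta, had log2 levels of 8.29, 8.19 and 8.17 in normal samples, 7.96, 7.77 and 7.96 in wild-type tumors, 7.85, 7.73 and 8.01 in Dnmt3b-deficient tumors, and 7.96 and 7.87 in pre-tumor samples. Normal samples were highest, by less than 1 log2 unit. The difference was -0.32 (SE 0.08, adjusted p 0.0326) in wild-type tumors, -0.35 (SE 0.08, adjusted p 0.022) in Dnmt3b-deficient tumors and -0.30 (SE 0.09, adjusted p 0.0602) in pre-tumor samples. Both lymphoma calls depended on single arrays: adjusted p was between 0.0506 and 0.0971 in wild-type lymphomas without any normal sample, wild-type replicate 1 or 2, or Dnmt3b-deficient replicate 1 (0.0683 with median centring of the arrays), and between 0.0566 and 0.073 in Dnmt3b-deficient lymphomas without normal replicate 1 or 2, or Dnmt3b-deficient replicate 1 or 2. Eif2b4, encoding delta, had log2 levels of 6.45, 6.53 and 6.54 in normal samples, 6.37, 6.33 and 6.41 in wild-type tumors, 6.41, 6.33 and 6.33 in Dnmt3b-deficient tumors, and 5.96 and 6.22 in pre-tumor samples. The pre-tumor samples were lowest, and lymphomas lay between them and normal thymocytes. The difference was -0.14 (SE 0.06, adjusted p 0.196) in wild-type tumors, -0.15 (SE 0.06, adjusted p 0.165) in Dnmt3b-deficient tumors and -0.42 (SE 0.07, adjusted p 0.00774) in pre-tumor samples. The small lymphoma differences of Eif2b4 passed without either pre-tumor sample (adjusted p 0.0399 and 0.0291), and the pre-tumor difference of Eif2b2 without Dnmt3b-deficient replicate 2 or 3 (adjusted p 0.0458 and 0.0383). Eif2b5, the catalytic epsilon subunit, differed by 0.05, 0.17 and -0.09 and did not pass, except in Dnmt3b-deficient lymphomas without replicate 2 (0.23, adjusted p 0.0293).

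eIF3, the largest initiation factor, binds the small subunit and recruits the mRNA. Of its 11 measured subunit genes, 7 rose in each lymphoma group and 4 in pre-tumor thymocytes, and 0 fell. The shares that passed were 63.6%, 63.6% and 36.4%, beside 19.9%, 20.2% and 19.6% of all probe sets. Among the brighter probe sets refitted above they were 45.4%, 44.9% and 43.0%. The median difference over the class was 0.54, 0.76 and 0.45 in wild-type lymphomas, Dnmt3b-deficient lymphomas and pre-tumor thymocytes. Eif3a encodes the scaffold subunit on which the complex assembles, and its promoter window above holds a CACGTG after the start. Eif3a had log2 levels of 7.08, 6.09 and 7.14 in normal samples, 9.65, 9.17 and 9.23 in wild-type tumors, 9.76, 9.78 and 9.33 in Dnmt3b-deficient tumors, and 9.39 and 9.92 in pre-tumor samples. Normal replicate 2 was lowest, and even the highest normal sample was more than 2 log2 units below every other array. The difference was 2.58 (SE 0.31, adjusted p 0.00182) in wild-type tumors, 2.86 (SE 0.31, adjusted p 0.0011) in Dnmt3b-deficient tumors and 2.89 (SE 0.35, adjusted p 0.00276) in pre-tumor samples, which is 5.99-fold, 7.24-fold and 7.40-fold higher. Eif3e, a peripheral subunit, had log2 levels of 6.87, 6.93 and 6.80 in normal samples, 9.68, 9.41 and 9.40 in wild-type tumors, 9.49, 9.49 and 8.64 in Dnmt3b-deficient tumors, and 8.63 and 9.66 in pre-tumor samples. The 3 normal samples were close together and the third Dnmt3b-deficient lymphoma and pre-tumor replicate 1 were the lowest of the others. Its difference was 2.63 (SE 0.31, adjusted p 0.0016) in wild-type tumors, 2.34 (SE 0.31, adjusted p 0.00212) in Dnmt3b-deficient tumors and 2.27 (SE 0.35, adjusted p 0.00538) in pre-tumor samples.

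Eif3m, another peripheral subunit, had log2 levels of 7.14, 6.50 and 7.62 in normal samples, 9.20, 9.12 and 9.23 in wild-type tumors, 9.002, 9.29 and 8.36 in Dnmt3b-deficient tumors, and 8.62 and 9.53 in pre-tumor samples. Normal samples varied over more than 1 log2 unit and still did not overlap with the others. The difference was 2.09 (SE 0.37, adjusted p 0.00725) in wild-type tumors, 1.79 (SE 0.37, adjusted p 0.0124) in Dnmt3b-deficient tumors and 1.99 (SE 0.41, adjusted p 0.0151) in pre-tumor samples, and without pre-tumor replicate 2 the pre-tumor adjusted p was 0.125. The Eif3m call in Dnmt3b-deficient lymphomas was lost when only these and normal samples were fitted (adjusted p 0.0542). The probe set used for Eif3m lies by its ID among genes of another chromosome. The other Eif3m probe set, beside genes of chromosome 2 where RefSeq places the gene, had a mean of 6.28 in normal thymocytes and 8.46, 8.16 and 8.50 in the other groups. Eif3c, a core subunit, had log2 levels of 8.13, 8.29 and 8.60 in normal samples, 9.86, 9.75 and 9.53 in wild-type tumors, 9.90, 9.97 and 9.49 in Dnmt3b-deficient tumors, and 9.53 and 9.73 in pre-tumor samples. All 8 MYC-transgenic arrays were above normal. The difference was 1.37 (SE 0.17, adjusted p 0.002) in wild-type tumors, 1.45 (SE 0.17, adjusted p 0.00137) in Dnmt3b-deficient tumors and 1.29 (SE 0.19, adjusted p 0.00501) in pre-tumor samples.

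Smaller rises were seen for the core subunits Eif3b and Eif3i and for Eif3l, which passed in both lymphoma groups and not in pre-tumor thymocytes. Eif3b differed by 0.54 (SE 0.11, adjusted p 0.0146) in wild-type tumors, 0.76 (SE 0.11, adjusted p 0.0034) in Dnmt3b-deficient tumors and 0.19 (SE 0.13, adjusted p 0.393) in pre-tumor samples. Its wild-type call was lost under quantile normalization (0.38, adjusted p 0.114). Eif3i differed by 0.67 (SE 0.18, adjusted p 0.0345) in wild-type tumors, 0.68 (SE 0.18, adjusted p 0.0318) in Dnmt3b-deficient tumors and 0.53 (SE 0.20, adjusted p 0.107) in pre-tumor samples. Eif3l differed by 0.54 (SE 0.15, adjusted p 0.0415) in wild-type tumors, 0.87 (SE 0.15, adjusted p 0.00585) in Dnmt3b-deficient tumors and 0.45 (SE 0.17, adjusted p 0.103) in pre-tumor samples. The wild-type Eif3l call was lost without any normal sample, any wild-type lymphoma, Dnmt3b-deficient replicate 3 or either pre-tumor sample (adjusted p between 0.056 and 0.124). The Eif3i calls were lost without normal replicate 1 or 3, and without any wild-type lymphoma, in both lymphoma comparisons. They were also lost without Dnmt3b-deficient replicate 3 in wild-type lymphomas and without any Dnmt3b-deficient lymphoma in the other (adjusted p between 0.0513 and 0.0989). Eif3d, Eif3f, Eif3h and Eif3k did not pass in any comparison, with differences from -0.23 to 0.41. Without Dnmt3b-deficient replicate 3, Eif3f in that genotype differed by -0.31 (adjusted p 0.0232). The pre-tumor differences of Eif3l and Eif3i passed without Dnmt3b-deficient replicate 1 (adjusted p 0.0065) and without pre-tumor replicate 1 (0.81, adjusted p 0.038), respectively. Eif3d is known to bind the cap of selected mRNAs. Eif3h was among the steadier genes, with group means of 10.46 in normal thymocytes, 10.64 and 10.68 in wild-type and Dnmt3b-deficient tumors and 10.43 in pre-tumor samples.

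**Figure D2:**
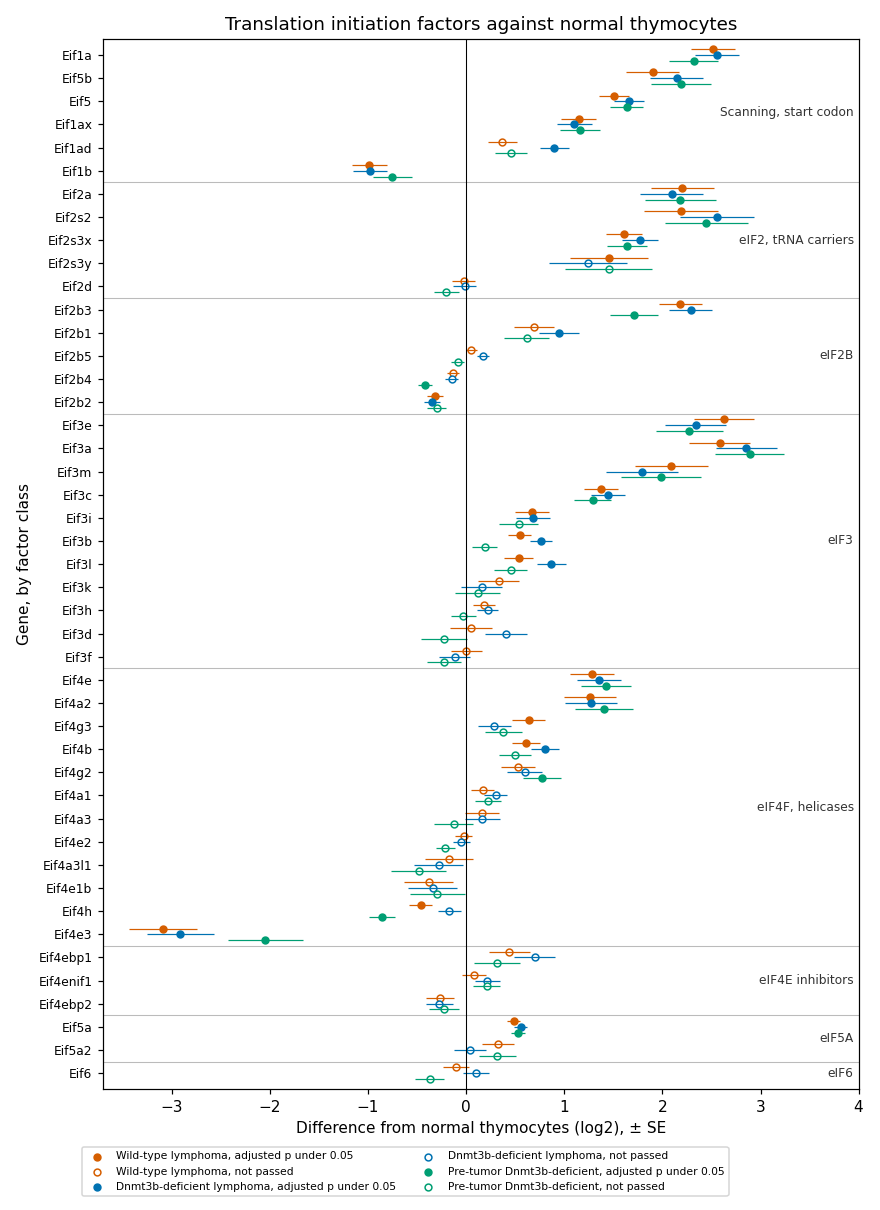
Difference from normal thymocytes on the log2 scale (horizontal axis, bars are SE) for each of the 45 genes, ordered by class, in wild-type lymphomas, Dnmt3b-deficient lymphomas and pre-tumor thymocytes; filled points passed an adjusted p of 0.05. The rises of Eif3a reach 2.89 and the fall of Eif4e3 in wild-type lymphomas is -3.09.

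The eIF4F complex and its helicase cofactors were split. Of 12 genes, 4 rose and 2 fell in wild-type lymphomas, 3 rose and 1 fell in Dnmt3b-deficient lymphomas, and 3 rose and 2 fell in pre-tumor thymocytes. Eif4e encodes the cap-binding subunit, whose 2 CACGTG motifs are shown above. Eif4e had log2 levels of 7.88, 7.51 and 8.08 in normal samples, 9.41, 8.97 and 8.94 in wild-type tumors, 9.18, 9.51 and 8.84 in Dnmt3b-deficient tumors, and 9.11 and 9.38 in pre-tumor samples. All 8 MYC-transgenic arrays were above normal. The difference was 1.28 (SE 0.22, adjusted p 0.00712) in wild-type tumors, 1.35 (SE 0.22, adjusted p 0.0052) in Dnmt3b-deficient tumors and 1.42 (SE 0.25, adjusted p 0.0088) in pre-tumor samples, and without pre-tumor replicate 2 the pre-tumor adjusted p was 0.0786. This probe set lies by its ID among genes of the X chromosome, whereas RefSeq places Eif4e on chromosome 3. Of 2 other probe sets beside genes of chromosome 3, the one that lists RefSeq transcripts had means of 4.37 in normal samples, 5.66 in wild-type tumors, 5.88 in Dnmt3b-deficient tumors and 5.93 in pre-tumor samples. The other, which lists none, had means of 5.65, 5.55, 5.65 and 5.38 and did not pass, so the probe sets of Eif4e disagree. With the mean of the 3 probe sets the differences were 0.82 in wild-type lymphomas and 0.90 in pre-tumor thymocytes.

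Eif4e3 encodes another member of the cap-binding family, known to bind the cap without the usual pair of aromatic residues. Eif4e3 had log2 levels of 7.52, 7.30 and 7.58 in normal samples, 3.97, 4.20 and 4.96 in wild-type tumors, 5.16, 4.07 and 4.42 in Dnmt3b-deficient tumors, and 5.67 and 5.17 in pre-tumor samples. Every MYC-transgenic array was more than 1 log2 unit below the normal samples. Pre-tumor replicate 1 was above every lymphoma, and pre-tumor replicate 2 was nearly equal to Dnmt3b-deficient lymphoma replicate 1 (5.1657 and 5.1646). The difference was -3.09 (SE 0.34, adjusted p 0.00132) in wild-type tumors, -2.91 (SE 0.34, adjusted p 0.00138) in Dnmt3b-deficient tumors and -2.05 (SE 0.39, adjusted p 0.011) in pre-tumor samples. Normal thymocytes were thus 8.50-fold, 7.53-fold and 4.13-fold higher. The pre-tumor call was lost without pre-tumor replicate 2 (adjusted p 0.0957). The difference of wild-type lymphomas from pre-tumor thymocytes did not pass (-1.04, SE 0.39, adjusted p 0.544). Eif4e1b, a form known from germ cells, differed by -0.38, -0.34 and -0.30 and did not pass. Eif4e2, a cap-binding repressor, differed by -0.02, -0.05 and -0.21 and did not pass, except in pre-tumor thymocytes without replicate 2 (-0.37, adjusted p 0.049).

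Eif4a1 and Eif4a2 encode the helicase that unwinds mRNA leaders. Eif4a2 had log2 levels of 8.26, 7.54 and 8.43 in normal samples, 9.43, 9.20 and 9.39 in wild-type tumors, 9.34, 9.60 and 9.09 in Dnmt3b-deficient tumors, and 9.18 and 9.78 in pre-tumor samples. Normal replicate 2 was lowest, and normal samples did not overlap with the others. Its difference was 1.27 (SE 0.26, adjusted p 0.0144) in wild-type tumors, 1.27 (SE 0.26, adjusted p 0.0132) in Dnmt3b-deficient tumors and 1.41 (SE 0.30, adjusted p 0.016) in pre-tumor samples. The call in wild-type lymphomas was lost without wild-type replicate 1 (adjusted p 0.0539) and that in pre-tumor thymocytes without pre-tumor replicate 2 (adjusted p 0.133). The call in Dnmt3b-deficient lymphomas was lost when only these and normal samples were fitted (adjusted p 0.0582). Eif4a1 differed by 0.17, 0.30 and 0.23 and did not pass (lowest adjusted p 0.13). Without Dnmt3b-deficient replicate 3 its difference in that genotype was 0.42 (adjusted p 0.0296), and under quantile normalization its difference in wild-type lymphomas was -0.015. Its RNA level was high in all groups, with means from 11.33 to 11.63. The probe set used lies by its ID among genes of chromosome 19, whereas RefSeq places Eif4a1 on chromosome 11. The Eif4a1 probe set beside genes of chromosome 11 had means from 10.54 to 10.82 and did not pass either. Eif4a3, of the exon junction complex, and its near-identical copy Eif4a3l1 did not pass, with differences of 0.16, 0.17 and -0.13 for the former and -0.18, -0.28 and -0.48 for the latter. Their signals cannot be told apart with certainty.

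Eif4h, a cofactor that stimulates the helicase, had log2 levels of 10.25, 10.29 and 10.19 in normal samples, 9.69, 9.97 and 9.69 in wild-type tumors, 10.17, 9.94 and 10.10 in Dnmt3b-deficient tumors, and 9.56 and 9.21 in pre-tumor samples. Pre-tumor samples were lowest, wild-type lymphomas came next by their mean, and all were below the normal samples. The difference was -0.46 (SE 0.12, adjusted p 0.0287) in wild-type tumors, -0.17 (SE 0.12, adjusted p 0.416) in Dnmt3b-deficient tumors and -0.86 (SE 0.13, adjusted p 0.00529) in pre-tumor samples. The fall in wild-type lymphomas was lost without any normal sample or wild-type replicate 1 or 3 (adjusted p between 0.0573 and 0.0997). The other cofactor gene, Eif4b, differed by 0.61 (SE 0.15, adjusted p 0.0236) in wild-type tumors, 0.80 (SE 0.15, adjusted p 0.0075) in Dnmt3b-deficient tumors and 0.50 (SE 0.16, adjusted p 0.0744) in pre-tumor samples. Its wild-type call was lost without any normal sample or any wild-type lymphoma (adjusted p between 0.0594 and 0.0684). Its call in Dnmt3b-deficient lymphomas was lost when only these and normal samples were fitted (adjusted p 0.056). Its pre-tumor difference passed without Dnmt3b-deficient replicate 1 or 3 (adjusted p 0.0103 and 0.0256). Among the scaffolds, Eif4g3 differed by 0.64 (SE 0.17, adjusted p 0.0362) in wild-type tumors, 0.29 (SE 0.17, adjusted p 0.338) in Dnmt3b-deficient tumors and 0.38 (SE 0.19, adjusted p 0.227) in pre-tumor samples. That wild-type call was lost without normal replicate 2 or 3, any wild-type lymphoma, Dnmt3b-deficient replicate 3 or either pre-tumor sample (adjusted p between 0.0558 and 0.108). Eif4g2, a scaffold that lacks the eIF4E-binding site, differed by 0.53 (SE 0.17, adjusted p 0.0774) in wild-type tumors, 0.60 (SE 0.17, adjusted p 0.0507) in Dnmt3b-deficient tumors and 0.77 (SE 0.20, adjusted p 0.0306) in pre-tumor samples. Its pre-tumor call was lost without normal replicate 1 or 2, wild-type replicate 2 or either pre-tumor sample (adjusted p between 0.0517 and 0.151) and under quantile normalization (adjusted p 0.092), and both lymphoma differences passed without Dnmt3b-deficient replicate 3 (adjusted p 0.0155 and 0.00541).

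**Figure D3:**
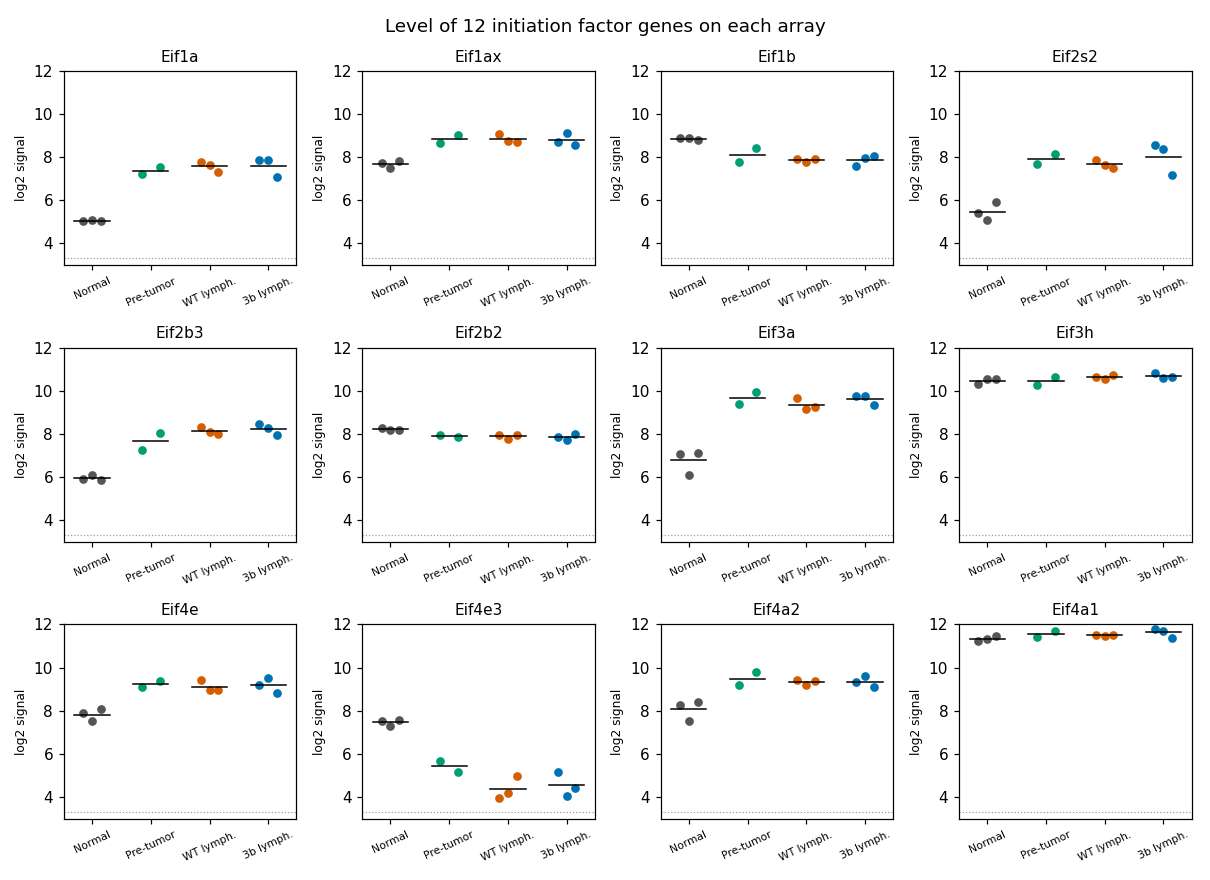
Log2 signal (vertical axis) on each array for 12 genes in normal thymocytes, pre-tumor thymocytes, wild-type (WT) lymphomas and Dnmt3b-deficient (3b) lymphomas; horizontal bars are group means and the dotted line is the floor at 3.32. Eif1a and Eif3a lie higher in all 8 MYC-transgenic samples, Eif4e3 and Eif1b lie lower, and Eif3h and Eif4a1 differ little.

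The genes that restrain or move eIF4E did not pass in any comparison as fitted on all probe sets and samples. Eif4ebp1 and Eif4ebp2 encode proteins that block the binding of eIF4E to its scaffold until mTORC1 phosphorylates them. Eif4ebp1 had log2 levels of 6.03, 6.50 and 5.64 in normal samples, 6.50, 6.64 and 6.35 in wild-type tumors, 6.99, 6.67 and 6.61 in Dnmt3b-deficient tumors, and 6.42 and 6.32 in pre-tumor samples. Normal samples overlapped with wild-type lymphomas and pre-tumor thymocytes and lay below the Dnmt3b-deficient lymphomas. The difference was 0.44 (SE 0.21, adjusted p 0.212) in wild-type tumors, 0.70 (SE 0.21, adjusted p 0.0577) in Dnmt3b-deficient tumors and 0.31 (SE 0.24, adjusted p 0.452) in pre-tumor samples. Without normal replicate 2 it passed in both lymphoma groups, at 0.66 (adjusted p 0.0451) and 0.92 (adjusted p 0.0145). In Dnmt3b-deficient lymphomas it also passed with all samples under median centring (adjusted p 0.0367), without probe sets at the floor on all arrays (adjusted p 0.0298) and without the dimmer probe sets (adjusted p 0.0163). Eif4ebp2 had log2 levels of 7.99, 8.41 and 8.21 in normal samples, 7.87, 7.83 and 8.11 in wild-type tumors, 7.93, 7.90 and 7.95 in Dnmt3b-deficient tumors, and 7.78 and 8.17 in pre-tumor samples. Groups overlapped apart from the Dnmt3b-deficient lymphomas, which lay just below normal. The difference was -0.27 (SE 0.14, adjusted p 0.251) in wild-type tumors, -0.28 (SE 0.14, adjusted p 0.248) in Dnmt3b-deficient tumors and -0.23 (SE 0.16, adjusted p 0.395) in pre-tumor samples. Eif4enif1, encoding the nuclear transporter of eIF4E, had log2 levels of 7.59, 7.21 and 7.43 in normal samples, 7.53, 7.41 and 7.52 in wild-type tumors, 7.78, 7.68 and 7.42 in Dnmt3b-deficient tumors, and 7.71 and 7.52 in pre-tumor samples. All groups overlapped. Its differences were 0.08, 0.22 and 0.21.

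eIF5A is the factor that carries the amino acid hypusine and also acts in elongation. Eif5a had log2 levels of 11.003, 10.91 and 10.76 in normal samples, 11.39, 11.42 and 11.32 in wild-type tumors, 11.44, 11.40 and 11.51 in Dnmt3b-deficient tumors, and 11.48 and 11.36 in pre-tumor samples. Every MYC-transgenic array was above the normal samples, by a small amount. The difference was 0.48 (SE 0.07, adjusted p 0.00279) in wild-type tumors, 0.56 (SE 0.07, adjusted p 0.00139) in Dnmt3b-deficient tumors and 0.53 (SE 0.07, adjusted p 0.00423) in pre-tumor samples. The probe set used lies by its ID among genes of chromosome 5, and the Eif5a probe set beside genes of chromosome 11, where RefSeq places the gene, gave a pre-tumor difference of 0.22 (adjusted p 0.0818). Eif5a2, its paralogue, differed by 0.33, 0.04 and 0.32 and did not pass. Eif6, which keeps the large subunit apart from the small one, differed by -0.11, 0.10 and -0.37 and did not pass (lowest adjusted p 0.133). Without Dnmt3b-deficient replicate 1 the pre-tumor value of Eif6 passed (adjusted p 0.017).

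The tumor genotypes were compared next, which asks whether lymphomas labelled Dnmt3b-/- differ from those with intact Dnmt3b. None of the 45 initiation factor genes passed in limma, against 0.00691% of all probe sets. At an unadjusted p under 0.05 there were 2, Eif1ad and Eif4h, against 6.30% of all probe sets, and they are named for that reason after their values were seen. Eif1ad had log2 levels of 7.63, 7.98 and 7.65 in normal samples, 8.18, 8.26 and 7.93 in wild-type tumors, 8.40, 8.74 and 8.80 in Dnmt3b-deficient tumors, and 8.27 and 8.14 in pre-tumor samples. The Dnmt3b-deficient lymphomas were the 3 highest arrays. Eif1ad differed between the genotypes by 0.53 (95% interval 0.19 to 0.87, SE 0.15, adjusted p 0.614). Eif4h differed by 0.29 (95% interval 0.02 to 0.56, SE 0.12, adjusted p 0.764) and its lymphoma groups overlapped. Eif1ad and Eif3l were the 2 genes whose tumor groups did not overlap, beside 7.98% of all probe sets. The median difference over the 45 genes was 0.07.

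A difference that misses the threshold does not show equal levels, so intervals are given. For 40 of the 45 genes the 95% interval of the genotype difference lay within 1 log2 unit either way, and for 18 within 0.5. The 5 genes with wider limits were Eif2s2, Eif2s3y, Eif3a, Eif3e and Eif3m, and the limits over all genes ran from -1.16 to 1.25. Cre goes with the genotype among the tumors, and their parts cannot be told apart.

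**Figure D4:**
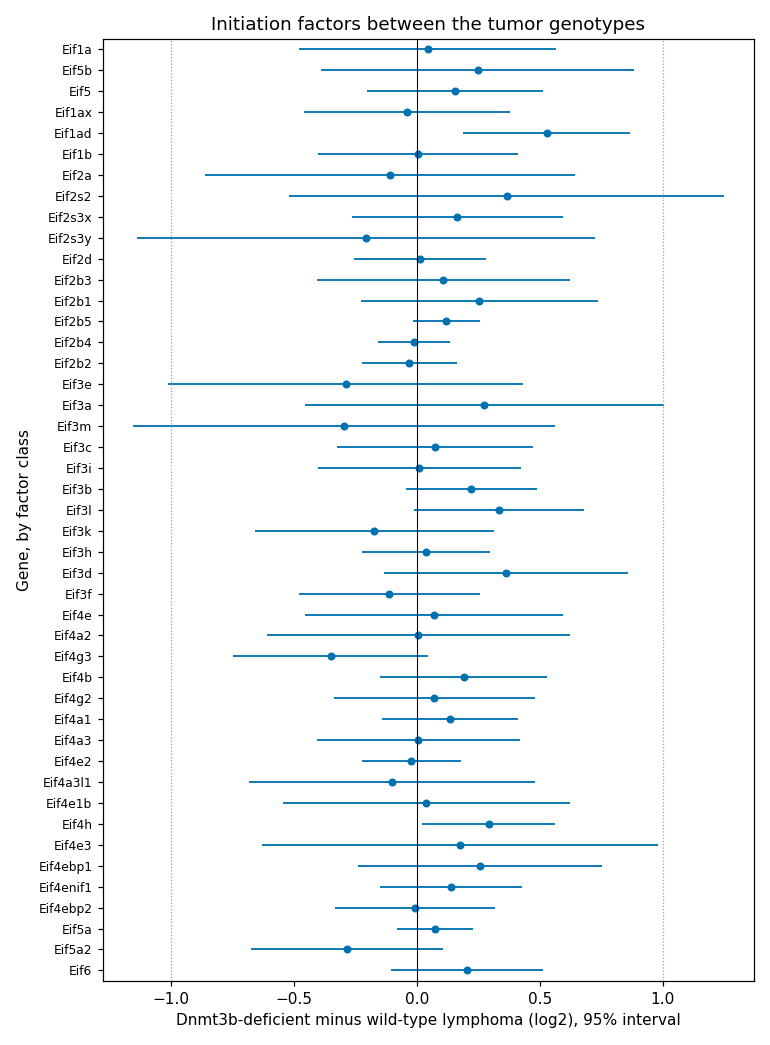
Difference between Dnmt3b-deficient and wild-type lymphomas on the log2 scale (horizontal axis) with its 95% interval, for each of the 45 genes by class; dotted lines mark a difference of 1 log2 unit either way. Most intervals include 0, and Eif1ad has the largest difference, 0.53.

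Stage was compared between the Dnmt3b-deficient lymphomas and the pre-tumor thymocytes of the same labelled genotype. None of the 45 genes passed in limma, against 0.0691% of all probe sets. An unadjusted p under 0.05 was reached by 9 of the 45, beside 9.43% of all probe sets. The lowest was Eif4h, higher in lymphomas by 0.68 (95% interval 0.38 to 0.99, SE 0.13, adjusted p 0.15). Eif3b was next, higher by 0.58 (SE 0.13, adjusted p 0.202). For Eif2b5 the lymphomas were higher by 0.26 (SE 0.07, adjusted p 0.261). In these cases no lymphoma overlapped with a pre-tumor sample. Non-overlap was seen for 11 of the 45 genes, beside 20.9% of all probe sets. Between wild-type lymphomas and pre-tumor thymocytes none passed either, against 0.107% of all probe sets. The 4 genes with an unadjusted p under 0.05 were Eif2b4, Eif3b, Eif4e3 and Eif4h, beside 7.77% of all probe sets. Samples did not overlap for 13 of the 45, beside 19.5% of all probe sets. Sorting and stage cannot be told apart in these comparisons, and with 2 pre-tumor samples the precision is limited. Wild-type lymphomas and pre-tumor thymocytes also differ in Dnmt3b allele and Cre, which cannot be told apart from sorting and stage.

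Related genes that act with the initiation factors were counted from lists of known members. For scale, 19.9% of all probe sets passed against normal thymocytes for wild-type tumors, 20.2% for Dnmt3b-deficient tumors and 19.6% for pre-tumor samples. Among the brighter probe sets refitted above, the shares were 45.4%, 44.9% and 43.0%, with 23.4%, 22.9% and 22.3% rising. The lists were counted in the fit of all probe sets only, and no list was tested against a background. Of the 4 eIF2 kinases 1 fell in each comparison with normal thymocytes, Eif2ak3, the endoplasmic reticulum stress kinase PERK. Its differences were -0.96 (adjusted p 0.00226) in wild-type tumors, -1.08 (adjusted p 0.00127) in Dnmt3b-deficient tumors and -1.01 (adjusted p 0.00399) in pre-tumor samples. Of 13 genes linked to the integrated stress response that eIF2 phosphorylation sets off, 4 rose and 1 fell, 4 rose and 0 fell, and 3 rose and 1 fell, in the same order. The risers were the asparagine synthetase gene Asns (4.12, 4.47 and 3.05) and the serine and glycine synthesis genes Psat1 (1.50, 1.69 and 1.22), Shmt2 (1.19, 1.57 and 0.98) and Phgdh, which passed in the lymphomas (0.65 and 0.83) and not in pre-tumor thymocytes (0.42). These are enzymes of amino acid synthesis. The fallers were Ppp1r15b in wild-type lymphomas (-0.50) and Atf5 in pre-tumor thymocytes (-0.28). Atf4, the transcription factor of the response, did not pass, and neither did Ddit3, Trib3 and Chac1 of the same list. The genes of this list were thus split.

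Of 11 measured genes of mTORC1 signalling, S6 kinases and MNK kinases, which act on the eIF4E-binding proteins, Eif4b and Eif4e, 4 fell and 0 rose in each comparison. They were Mtor (-0.50, -0.51 and -0.49), its inhibitor Tsc1 (-0.55, -0.57 and -0.47), the S6 kinase gene Rps6kb2 (-0.65, -0.63 and -0.80) and Mknk1 (-0.87, -0.82 and -0.81), a kinase of Eif4e. Activators and an inhibitor of the pathway are thus both among those that fell. Falls alone made up 10.3%, 10.5% and 9.88% of all probe sets. Whether this list differs from the brighter probe sets was not tested. Of 5 measured poly(A)-binding proteins and partners 1 rose in each comparison, Pabpc1 (0.80, 0.90 and 0.82), which bridges the poly(A) tail to the eIF4 scaffold.

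Other initiation and recycling factors rose in 6 of 11 measured genes in each comparison. The largest differences were those of Abce1, the ATPase that splits ribosomes after termination (3.23, 3.35 and 3.40), and Ddx3x, a helicase of mRNA leaders (1.87, 2.10 and 1.91). In wild-type lymphomas 2 of the 11 also fell, Mcts2 (-1.13) and the mitochondrial factor Mtif3 (-0.38). Elongation and release factors rose in 5, 6 and 5 of 10 measured genes and 0 fell. Etf1, which recognises stop codons, differed by 2.44, 2.54 and 2.29, and its partner Gspt1 by 1.62, 1.79 and 1.87. Eef2, the translocase of elongation, differed by -0.02, -0.02 and -0.25 and did not pass.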

How the data were processed

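RNA of 11 thymus samples in 4 groups was read on 1 Affymetrix array each. The deposited values are log2 signals, and the submitters' processing notes name RMA and Partek without versions or an order of steps. Each array has 23.6% to 25.7% of its values at the floor and an array median of 4.55 to 4.62, and the values were used as deposited. For the platform annotation, a genome build is not given in the sources used. Arrays have no read depth, so their number limits the precision.

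Of 35512 probe sets, the 6573 below the lowest annotated ID were left out as probable controls, an inference from the IDs. The other 28939 include 21789 with 1 gene symbol, 1621 with several and 5529 with none. All 45 member symbols are current in RefSeq (GRCm38.p6), and 38 members lie on 1 probe set. Arrays shared at most 2.90% of identical values above the floor, so no pair of arrays was a duplicate.

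A mean per group was fitted to all 11 samples with limma 3.58.1 (lmFit and eBayes, R 4.3.3), with 6 contrasts and Benjamini-Hochberg adjustment over 28939 probe sets. The code was also run on simulated data with independent noise, which does not mimic these samples, and the outcome is not reported here. Values in every sample are given for up to 4 members per class with the largest passing difference, for members that moved against their class and for the eIF4E-binding inhibitors. The other members are given by their differences, and related lists by counts with up to 4 passing genes. The members and lists were chosen with earlier results of these data known. Alternatives were 2 other normalizations, 2 filters, 2 variance models, the samples fitted, a minimum difference, a replicate block, other probe sets per gene and leaving out each sample.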

Additional observations from a re-analysis of the deposited data

Results flagged for a closer look

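The 6 values here come from probe sets that carry an initiation factor symbol together with other symbols, which the comparisons above do not use. They were picked out because all 8 MYC-transgenic samples lay above every normal sample. The share of all probe sets that meets this rule was not counted. The 4 probe sets shared by Eif1a and its near copies under Gm symbols had log2 differences of 1.81, 1.84, 1.32 and 1.89 between wild-type lymphomas and normal thymocytes. Their differences in pre-tumor thymocytes were 1.75, 1.65, 1.28 and 1.82. For the dimmest of them, with 1.32 and 1.28, normal samples reached the floor (mean 3.37), which limits the difference that can be read. The 2 probe sets shared by Eif3j1 and Eif3j2, copies of a loosely bound eIF3 subunit gene, had differences of 2.43 and 2.35 in wild-type lymphomas and 2.73 and 2.62 in pre-tumor thymocytes. The shared probe sets of Snora28 with Eif5, of Ankhd1 with Eif4ebp3 and of Eif4a3l1 with Eif4a3 were not picked out by this rule. Their pre-tumor differences were 0.79 and 0.84 for the first-named, and -0.24 and -0.22 for those of Eif4a3l1 with Eif4a3. No p-values are given for any of these probe sets.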

How the results depend on the processing

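The counts of initiation factor genes that passed against normal thymocytes were within 1.5 times the reported ones under most alternatives. Exceptions were a minimum difference of 1, which left 16 in wild-type and 15 in Dnmt3b-deficient lymphomas, a fit of pre-tumor and normal samples alone, which left 8, and leaving out pre-tumor replicate 2, which left 13. Leaving out 1 sample gave 17 to 25, 21 to 26 and 13 to 23 in wild-type lymphomas, Dnmt3b-deficient lymphomas and pre-tumor thymocytes. The 0 in each comparison among MYC-transgenic groups stayed 0 under every alternative run. A replicate block gave 18, 23 and 16, and a fit of only the 2 groups compared gave 23, 19 and 8. Deviations from the group means correlated from -0.33 to 0.32 over 15 pairs of samples with the same number. For 30 pairs with different numbers the range was -0.32 to 0.33. Deviations within a group of 2 or 3 samples sum to 0, so these values cannot decide whether the numbers pair the samples. Of the genes that passed, 16 of 25, 18 of 24 and 4 of 20 did so in all 21 settings compared. Probe sets beside genes of the gene's own chromosome, an alternative chosen after seeing the data, turned the Eif4e differences to -0.11, -0.0077 and -0.28. The Eif4e probe set used there lists no RefSeq transcript, and it differs from the main one by construction. The Eif4e probe set beside genes of the same chromosome that lists RefSeq transcripts gave 1.29, 1.51 and 1.56. Quantile normalization turned Eif4a1 in wild-type lymphomas to -0.015, and the cause was not tested. Signals near the floor limit dim genes, and the groups of 2 or 3 arrays limit all others.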
